A study of Mus musculus with 36 samples.

Results

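The genes described here are 9 genes of bile acid synthesis and transport, chosen by their symbols and not by their levels. They are Cyp7a1, Cyp8b1, Cyp27a1, Baat, Abcb11, Abcb4, Slc10a1, Nr1h4 and Nr0b2, each matched to 1 of the 78239 gene identifiers counted. RNA was taken from heart, kidney and liver of wild-type male mice of C57BL/6NCrl, a common inbred laboratory strain. The animals were 8, 10 or 12 weeks old. No experimental treatment was given, and age is the only variable that the labels give within a tissue. All animals were of 1 sex and 1 strain. By the study's methods, the mice were injected with ketamine and xylazine as anesthesia and bled before the organs were collected. Each of the 9 combinations of tissue and age has 4 libraries, which gives 36 libraries in all and 12 per tissue.

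Bile acids are made from cholesterol in hepatocytes, the main cell type of the liver. In the classic pathway Cyp7a1, a cholesterol 7-alpha-hydroxylase, catalyses the rate-limiting step, and Cyp8b1, a sterol 12-alpha-hydroxylase, directs intermediates towards cholic acid, while the mitochondrial sterol 27-hydroxylase Cyp27a1 oxidises the side chain. Baat joins bile acids to taurine or glycine. The canalicular pump Abcb11 (BSEP) exports bile salts into bile, Abcb4 (MDR2) moves phosphatidylcholine across the same membrane, and Slc10a1 (NTCP) takes bile salts up from the blood. Nr1h4 encodes the bile acid receptor FXR, and Nr0b2 encodes SHP, a repressor that FXR induces and that is known to restrain Cyp7a1 and Cyp8b1.

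Between 21031599 and 33637390 read pairs were counted on genes per library. The defining hepatocyte markers (Alb, Ttr, Apoa1, Fgb, Serpinc1 and Tat) summed to between 70903 and 125907 CPM (counts divided by the scaled size of the library, in units of 1e6 counts) in the liver libraries, and none of the 6 was at 0 there. Alb, which encodes serum albumin, had between 151 and 246 counts in every kidney library. In heart it had 0 counts at 8 weeks, but 224 and 368 counts in replicates 2 and 4 at 10 weeks and 70 counts in replicate 4 at 12 weeks. Counts in whole tissue do not separate fewer cells of a type from less RNA per cell.

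All 9 genes were abundant in liver, and their levels per kilobase of transcript spanned more than an order of magnitude. Slc10a1 had the highest level, with a mean of 641 CPM per kilobase of its canonical transcript ± 143 (SD, n = 12), followed by Cyp27a1 with 339 ± 45.1 and Cyp8b1 with 228 ± 90.1 on the same scale. Abcb11 (161 ± 32.5), Baat (128 ± 7.08) and Cyp7a1 (112 ± 90.0) came next. Levels were lowest for the receptor Nr1h4 (66.0 ± 13.1), the transporter Abcb4 (61.5 ± 18.8) and Nr0b2 (28.6 ± 18.0). Among neighbours in this order, only the ranges of Slc10a1 and Cyp27a1 were separate over the 12 libraries. Cyp27a1 was above Cyp8b1 in 12 of 12 libraries although their ranges overlapped, whereas Nr1h4 was above Abcb4 in only 7 of 12 libraries. The order was the same when the length of all annotated exons was used.

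Of the synthesis enzymes, Cyp7a1 (ENSMUSG00000028240, chr4:6265612-6275633, GRCm39, minus strand) varied most from library to library. In the 4 replicates its level was 217, 270, 571 and 622 CPM at 8 weeks. At 10 weeks it was 106, 388, 85.6 and 122 CPM, and at 12 weeks it was 51.8, 286, 672 and 1007 CPM. Both the lowest and the highest liver library were from 12 weeks, and all 3 ages overlapped. The group means were 420 ± 206, 176 ± 143 and 504 ± 421 CPM (SD, n = 4 each). The log2 fold change was -1.26 (SE 0.71, adjusted p = 0.448, edgeR) at 10 against 8 weeks and 1.52 (SE 0.72, adjusted p = 0.362, edgeR) at 12 against 10 weeks. With 1 library left out these ranged from -2.01 to -1.01 and from 0.94 to 2.27, and without replicate 2 at 10 weeks, the highest library of its age, they were -2.01 (edgeR adjusted p = 0.203) and 2.27 (edgeR adjusted p = 0.198). At 12 against 8 weeks it was 0.26 (SE 0.70, 95% interval -1.25 to 1.77), and its sign turned without replicate 4 at 12 weeks (-0.32) and in the limma-voom fit (-0.27).

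Cyp8b1 (ENSMUSG00000050445, chr9:121743422-121745371, minus strand) is a gene of a single exon. Its liver level was 163, 286, 497 and 268 CPM at 8 weeks, 311, 182, 354 and 215 CPM at 10 weeks, and 346, 576, 503 and 464 CPM at 12 weeks. The highest libraries at 12 weeks were above all those at 10 weeks, but the lowest 12-week library fell within the 10-week range. At 12 against 10 weeks the log2 fold change was 0.83 (SE 0.30, 95% interval 0.19 to 1.47), with an adjusted p of 0.236 in edgeR and 0.0290 without the filter on low counts.

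The other enzymes differed little between animals. Cyp27a1 (ENSMUSG00000026170, chr1:74752314-74777056, plus strand) lay between 503 and 732 CPM over the 12 liver libraries, with a log2 fold change of 0.31 (SE 0.10, adjusted p = 0.210, edgeR) at 12 against 8 weeks. Of its exon bases, 32.8% are also covered by exons of Prkag3 on the other strand, and read pairs assigned to both genes were not counted. Baat (ENSMUSG00000039653, chr4:49489289-49506563, minus strand) was the steadiest gene of the set, between 190 and 231 CPM, and its 95% interval at 12 against 8 weeks was -0.18 to 0.15 on the log2 scale.

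Among the transporters, Abcb4 (ENSMUSG00000042476, chr5:8943604-9011999, plus strand) was the single gene of the set whose libraries at 12 and 8 weeks did not overlap in liver. Its level was 173, 165, 185 and 113 CPM at 8 weeks, 285, 158, 228 and 272 CPM at 10 weeks, and 361, 261, 220 and 227 CPM at 12 weeks. Every 12-week library was above every 8-week library, a separation shown in either direction by 8.14% of all genes tested. The log2 fold change was 0.75 (SE 0.21, 95% interval 0.30 to 1.20), with an adjusted p of 0.141 in edgeR, but 0.0263 in DESeq2 and 0.00643 in edgeR without the filter on low counts. These were the only 2 of 19 alternatives that called it, and its adjusted p was as high as 0.305 over them.

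Slc10a1 (ENSMUSG00000021135, chr12:80996372-81015479, minus strand) was lower at 10 weeks than at 8 weeks in every library. Its level was 780, 992, 1031 and 657 CPM at 8 weeks, 508, 606, 648 and 649 CPM at 10 weeks, and 628, 855, 793 and 929 CPM at 12 weeks. The gap between the groups was narrow, since the highest library at 10 weeks nearly reached the lowest at 8 weeks, and 9.55% of all genes tested were separated in this comparison. The log2 fold change at 10 against 8 weeks was -0.52 (SE 0.16, adjusted p = 0.180, edgeR).

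Abcb11 (ENSMUSG00000027048, chr2:69068544-69173315, minus strand) was measured at 780, 548, 408 and 486 CPM at 8 weeks. It ranged from 717 to 821 CPM at 10 weeks and from 611 to 844 CPM at 12 weeks. Replicate 1 at 8 weeks lay within the range of the older animals, while the other 3 libraries at 8 weeks were below it. At 10 against 8 weeks the log2 fold change was 0.45 (SE 0.17, adjusted p = 0.261, edgeR).

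Of the receptor genes, Nr1h4 had its lowest mean at 10 weeks and Nr0b2 its highest. Nr1h4 (ENSMUSG00000047638, chr10:89289742-89369497, minus strand) was measured at 114, 122, 127 and 120 CPM at 8 weeks, 94.6, 130, 84.0 and 88.3 CPM at 10 weeks, and 125, 115, 152 and 166 CPM at 12 weeks. Replicate 2 at 10 weeks stood within the 12-week range and the other 3 libraries of that age were below it. The log2 fold change at 12 against 10 weeks was 0.49 (SE 0.14, 95% interval 0.19 to 0.80), with an adjusted p of 0.149 in edgeR and 0.0401 in DESeq2.

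Nr0b2 (ENSMUSG00000037583, chr4:133280678-133283847, plus strand) was measured at 16.4, 15.9, 30.4 and 24.8 CPM at 8 weeks, 42.0, 13.1, 67.8 and 29.3 CPM at 10 weeks, and 22.4, 7.53, 17.7 and 19.6 CPM at 12 weeks. At 10 weeks 3 of the 4 libraries were above all of those at 12 weeks, and replicate 2 at 10 weeks, in which Cyp7a1 had its highest level of that age, had the lowest Nr0b2 level of its group. Over the 12 liver libraries Cyp7a1 and Nr0b2 were not significantly correlated (Pearson's r = -0.409, permutation test, adjusted p = 0.480). At 12 against 10 weeks the log2 fold change was -1.18 (SE 0.43, 95% interval -2.10 to -0.25), with an adjusted p of 0.244 in edgeR, but 0.0214 without the filter on low counts.

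**Figure D1:**
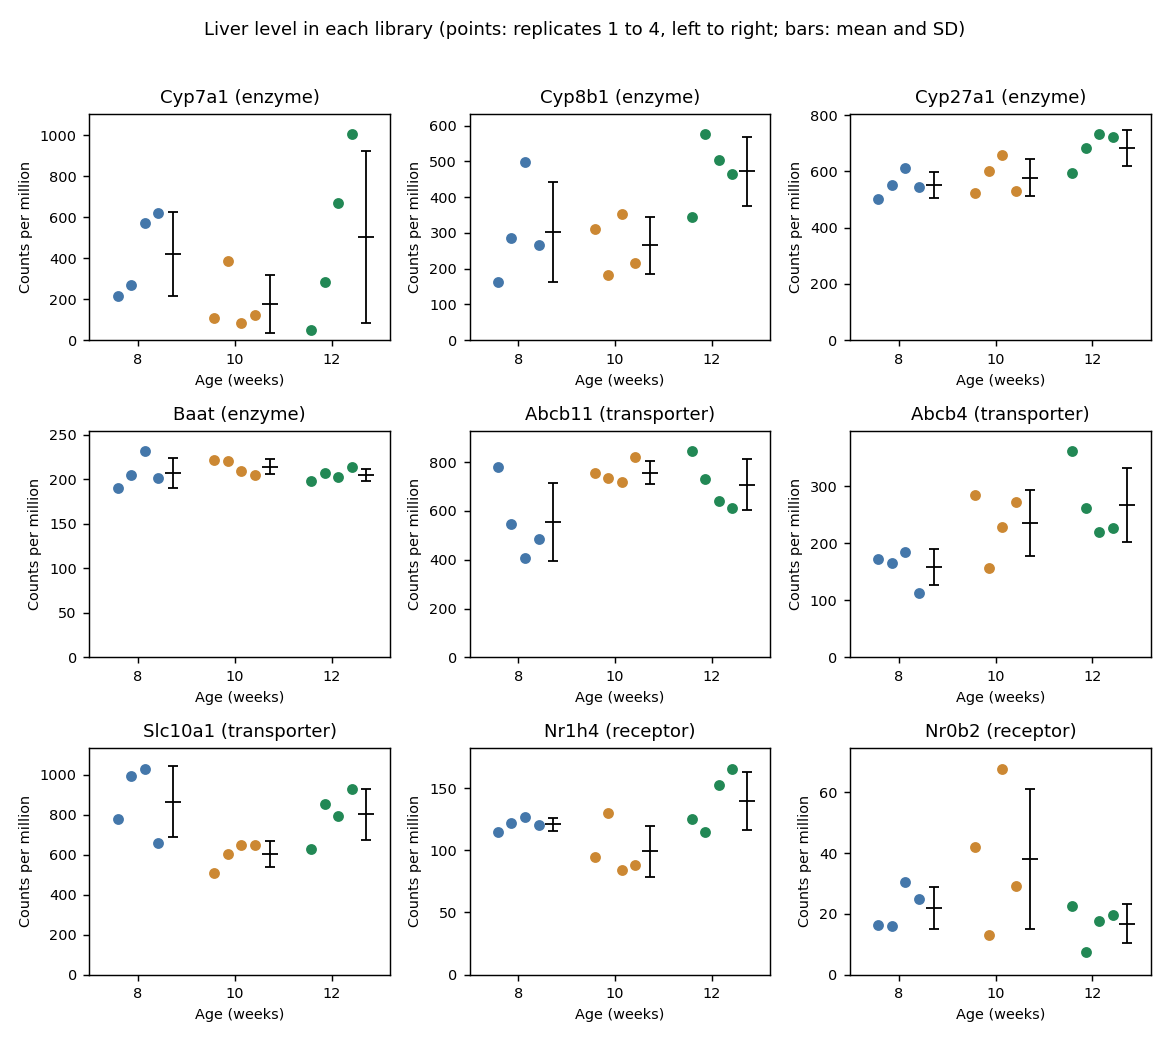
Level of each of the 9 genes in every liver library (vertical axis, CPM, from 0) for mice 8, 10 and 12 weeks old on the horizontal axis. Points are single libraries and bars give the mean and SD of 4 libraries. Cyp7a1 spreads from 51.8 to 1007 CPM while Baat stays between 190 and 231 CPM.

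No gene of the set passed an adjusted p of 0.05 between ages in liver. At 12 against 8 weeks 0 of 9 were called, against 0.239% of the 14672 genes tested. The corresponding counts were 0 of 9 against 0.0204% at 10 against 8 weeks and 0 of 9 against 0.0545% at 12 against 10 weeks. At an unadjusted p under 0.05 the counts were 2, 3 and 5 of 9, where 15.1%, 14.3% and 14.1% of all genes tested were. The median log2 fold change of the 9 genes was 0.26, 0.05 and 0.24, against medians of all genes tested that rounded to 0.00, 0.00 and 0.01. DESeq2 called 1, 0 and 1 of the 9 in these comparisons, where it called 2.88%, 2.46% and 3.29% of the 14672 genes. Without the count filter edgeR called 1, 0 and 2 of the 9, where it called 0.96%, 1.02% and 0.788% of 34374 genes. At 12 against 10 weeks Cyp8b1, Nr1h4 and Nr0b2 were each called in 1 of 19 alternatives. Besides Abcb4 and Slc10a1, no gene of the set was separated between ages in liver, and at 12 against 10 weeks 0 of 9 were, against 8.23% of all genes tested. No count of calls in liver changed when any single library was left out.

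**Figure D2:**
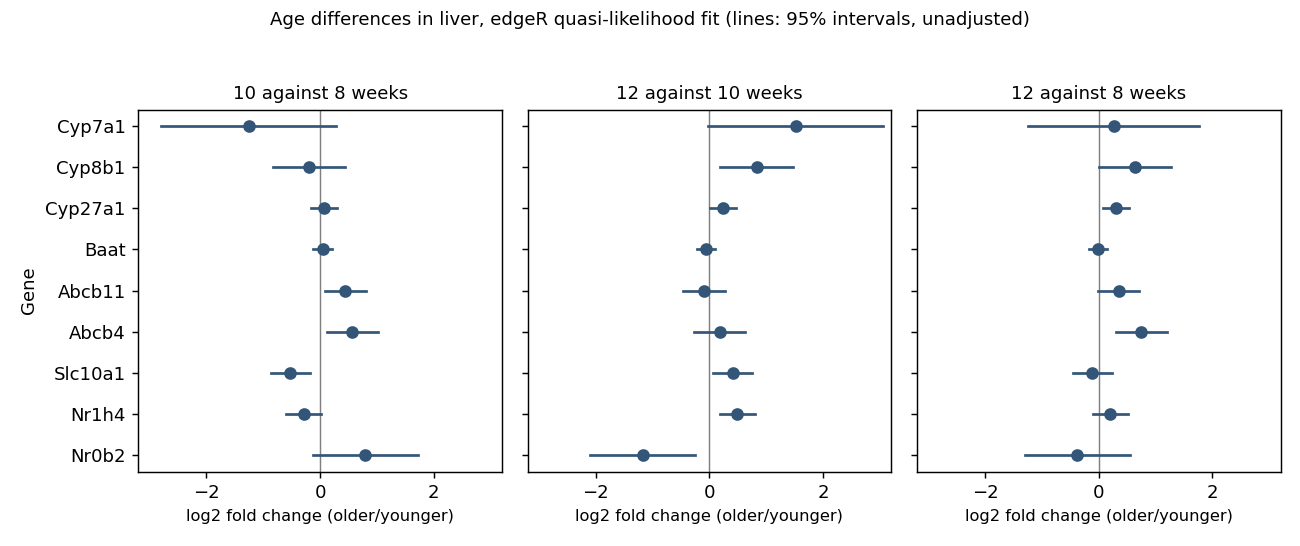
Log2 fold change between ages in liver for each gene (horizontal axis; older over younger), with the 95% interval of the edgeR fit before adjustment. The interval of Cyp7a1 at 12 against 8 weeks runs from -1.25 to 1.77, and that of Baat from -0.18 to 0.15.

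Of the markers of other liver cell types, 0 passed the adjusted test between ages, and their values stand here beside those of the 9 genes. The Kupffer cell markers (Clec4f, Cd5l, Vsig4, Adgre1 and Timd4) were lower at 12 than at 10 weeks in 5 of 5 genes, with a median log2 fold change of -1.03. Their summed level ranged from 202 to 319 CPM at 10 weeks and from 114 to 127 CPM at 12 weeks, and was between 79.0 and 175 CPM at 8 weeks. The endothelial markers (Pecam1, Cdh5, Stab2, Kdr and Clec4g) were lower in 5 of 5 genes in the same comparison, with a median of -0.84. The stellate cell and fibroblast markers (Col1a1, Col1a2, Col3a1, Dcn, Lrat and Reln) were lower at 12 weeks in 6 of 6 genes, with a median of -0.42 against 10 weeks and -0.53 against 8 weeks. Of 5 cholangiocyte markers tested, 4 were higher at 12 than at 8 weeks (median 0.53), and their summed level ranged from 18.7 to 25.4 CPM at 8 weeks and from 25.1 to 38.7 CPM at 12 weeks. The summed hepatocyte markers ranged from 70903 to 93542 CPM at 10 weeks and from 86126 to 115141 CPM at 12 weeks. Their part in the values of the 9 genes was not tested.

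The spread between animals of one age was itself a difference between the genes. The biological coefficient of variation, the part of the variation between replicates that counting does not give, was 0.661 for Cyp7a1, higher than in 98.7% of the 14672 genes tested in liver. Nr0b2 followed with 0.413, at percentile 93.4, and Cyp8b1 with 0.296, at percentile 81.8. The 3 transporters were near the median of 0.174, with 0.216 for Abcb4, 0.184 for Abcb11 and 0.173 for Slc10a1. Nr1h4 (0.155), Cyp27a1 (0.129) and Baat (0.104) were below it, and Baat lay at percentile 5.72. Counts of Cyp7a1 were never low in liver, with at least 1503 pairs per library.

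**Figure D3:**
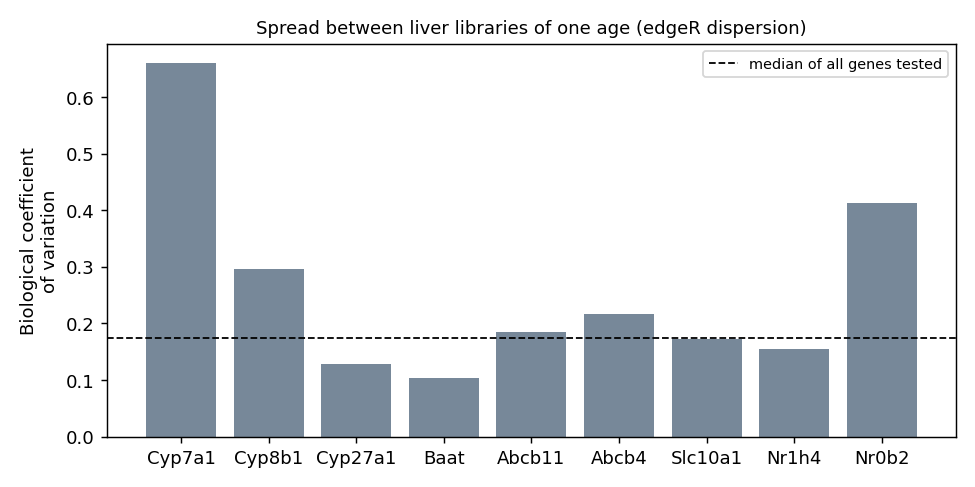
Biological coefficient of variation between liver libraries of one age (vertical axis, from 0) for each gene, from the edgeR dispersion. The dashed line marks the median of all genes tested, 0.174, and the bars of Cyp7a1 (0.661) and Nr0b2 (0.413) rise furthest above it.

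Promoter sequences are shown for Cyp8b1, whose levels in kidney and heart were traces of its liver level, and for Nr0b2, which was also measured in heart. The RefSeq promoter table (GRCm38.p6) holds 8 promoters of 7 of the 9 genes, and has no entry for Cyp7a1 and Baat. The 250 bases before the start site are given 5′ to 3′ on the strand of the gene, at chr9:121916306-121916555 (minus strand) for Cyp8b1 and at chr4:133553126-133553375 (plus strand) for Nr0b2. Capitals mark motif matches.
Cyp8b1: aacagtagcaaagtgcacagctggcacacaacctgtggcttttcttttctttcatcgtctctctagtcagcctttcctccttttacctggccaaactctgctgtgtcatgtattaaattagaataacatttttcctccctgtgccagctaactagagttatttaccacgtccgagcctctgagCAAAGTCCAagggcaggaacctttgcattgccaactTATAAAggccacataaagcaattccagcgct
Nr0b2: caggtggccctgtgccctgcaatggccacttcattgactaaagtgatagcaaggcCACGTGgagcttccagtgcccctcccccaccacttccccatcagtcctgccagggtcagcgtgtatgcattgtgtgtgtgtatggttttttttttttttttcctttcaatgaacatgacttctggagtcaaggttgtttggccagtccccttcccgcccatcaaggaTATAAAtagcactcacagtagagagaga

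In Cyp8b1 a form of the site of the hepatocyte factor HNF4 (letters CAAAGTCCA) lies 67 to 59 bases before the start, and the letters TATAAA of a core promoter element lie 31 to 26 bases before it. In Nr0b2 an E-box (letters CACGTG) lies 195 to 190 bases before the start, and TATAAA lies 28 to 23 bases before it. Both strands were searched in the 250 bases before each of the 32851 start sites in the table. CAAAGTCCA was found in 0.384% of them, TATAAA in 12.4% and CACGTG in 6.02%. AGGTCA, a nuclear receptor core motif, was found in 14.0% of all promoters and in 3 of the 8 promoters of these genes (Abcb11, Nr1h4 and 1 of the 2 of Slc10a1). The D-box, TTANGTAA, was in 2.06% of all promoters and in 0 of the 8. A match describes the letters in the window and not a bound site.

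Between tissues, all 9 genes were higher in liver than in kidney and than in heart in edgeR's fit of 36 libraries. These 9 of 9 stand beside 37.0% of 19716 genes called higher in liver than in kidney (83.1% called in either direction) and 42.2% called higher in liver than in heart (84.2% in either direction). The following levels are CPM scaled over all tissues together. Cyp7a1 was measured at 468 ± 375 CPM in liver (SD, n = 12) and had 0 counts in the 12 kidney libraries, so that liver was at least 70193-fold higher when 3 counts over the 12 kidney libraries are taken as the limit. Heart gave 6 counts of Cyp7a1 in all. Abcb11 had 859 ± 173 CPM in liver, 4 counts in kidney and 25 counts in heart, of which 18 were in the 2 heart libraries at 10 weeks with the most Alb counts.

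Cyp8b1 in kidney and heart was 0.0205% and 0.0372% of its liver mean of 444 ± 176 CPM. The corresponding shares were 0.267% and 0.0182% for Baat, and 0.0651% and 0.0192% for Slc10a1. Alb counts were also present in every kidney library and in 7 of 12 heart libraries, and their part in these traces was not tested.

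The remaining 4 genes had substantial levels outside the liver, in different organs. Nr1h4, the bile acid receptor, was nearly as abundant in kidney as in liver, with 114 ± 16.6 against 153 ± 30.4 CPM (SD, n = 12 each), and was at 0.323 ± 0.145 CPM in heart. The difference between liver and kidney of 0.43 on the log2 scale (SE 0.08, adjusted p = 8.76e-06, edgeR) turned to -0.37 (adjusted p = 3.36e-05) when libraries were scaled by total counts alone. The TMM factors were 0.724 to 0.821 in liver and 1.30 to 1.42 in kidney, and the median of all genes was -0.16 on the log2 scale between these tissues, so the order of liver and kidney for this gene rests on the scaling.

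Abcb4 and Nr0b2 showed the other pattern, with more RNA in heart than in kidney. Abcb4, the phosphatidylcholine translocator, was at 44.6 ± 5.75 CPM in heart, 15.8% of its liver mean of 282 ± 86.3 CPM, and at 0.230 ± 0.0981 CPM in kidney. The log2 difference between kidney and heart was -7.54 (SE 0.15, adjusted p = 9.82e-31, edgeR). Nr0b2 was at 9.44 ± 1.88 CPM in heart and 0.921 ± 0.219 CPM in kidney, which were 28.9% and 2.82% of its liver mean, and its log2 difference between kidney and heart was -3.36 (SE 0.22, adjusted p = 7.59e-16, edgeR). Without the 2 heart libraries that held the most Alb, 7 of 9 genes were called between kidney and heart. The share of all genes called in that fit is not given here. In the fit of all libraries 86.1% of all genes were called, so this count is not read as a result about these genes.

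Cyp27a1, which is known to be expressed beyond the liver, was at 51.4 ± 9.18 CPM in kidney and 21.3 ± 3.84 CPM in heart, 6.65% and 2.76% of its liver mean. In all, 7 of 9 genes were called between kidney and heart, against 86.1% of genes tested. The exceptions were Cyp7a1 and Cyp8b1, and the call of Abcb11 (-2.41, adjusted p = 0.0154, edgeR), which rests on 29 counts, was lost without any 1 of 3 heart libraries (replicate 2 at 8 weeks, adjusted p = 0.0632, replicate 1 at 12 weeks, 0.0533, and replicate 3 at 12 weeks, 0.0512). Without both heart libraries at 10 weeks that hold most Alb, which hold 18 of its 25 heart counts, it was -1.65 (edgeR adjusted p = 0.0438).

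**Figure D4:**
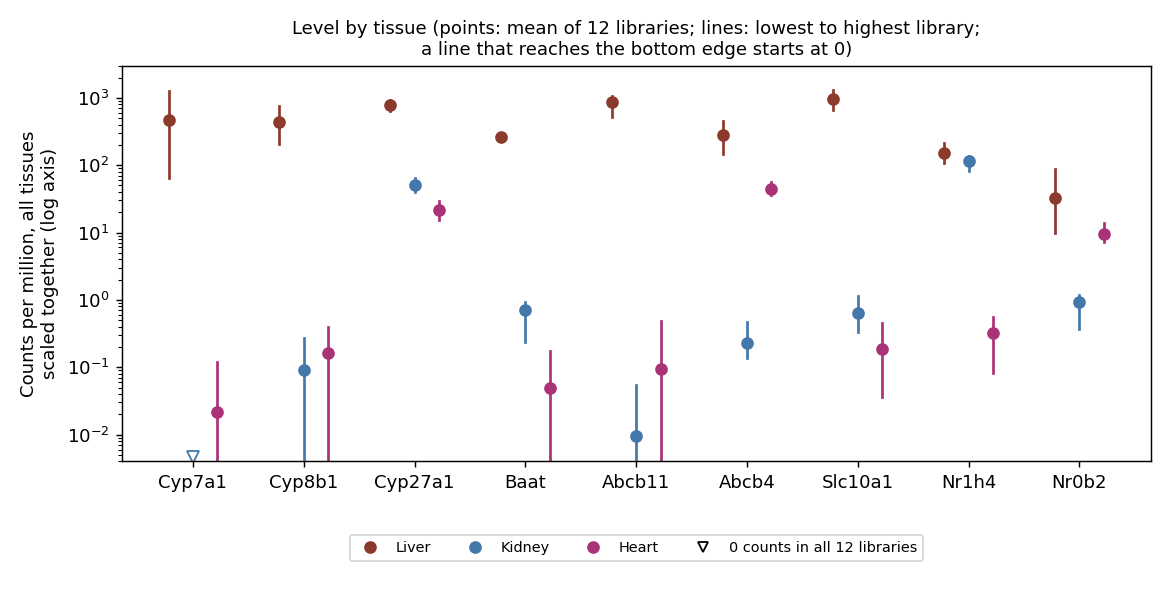
Level of each gene in liver, kidney and heart (vertical axis, log scale, CPM scaled over all tissues). Points are means of 12 libraries and lines run from the lowest to the highest library. Nr1h4 is near 100 CPM in both liver and kidney, and Abcb4 and Nr0b2 are higher in heart than in kidney.

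In kidney 5 of the 9 genes passed the count filter (Cyp27a1, Baat, Slc10a1, Nr1h4 and Nr0b2), and 0 of 5 were called between ages. The shares of the 17649 genes tested that were called were 0.0567% at 12 against 8 weeks, 0.929% at 10 against 8 weeks and 0.482% at 12 against 10 weeks. Nr1h4 was measured in kidney at 173, 157, 171 and 170 CPM at 8 weeks, 128, 149, 111 and 139 CPM at 10 weeks, and 137, 161, 168 and 186 CPM at 12 weeks. All 10-week libraries were below all 8-week libraries, as were those of Baat, and 9.09% of all genes tested were separated in this comparison. In the other kidney comparisons 0 of 5 were separated, against 6.61% of genes at 12 against 8 weeks and 8.93% at 12 against 10 weeks. The log2 fold change of Nr1h4 was -0.35 (SE 0.09) at 10 against 8 weeks, with an adjusted p of 0.0879 in edgeR but 0.0186 in DESeq2 and 0.000369 without the count filter. It was 0.31 (SE 0.09) at 12 against 10 weeks, with an adjusted p of 0.124 in edgeR, 0.0464 in DESeq2 and 0.00286 without the count filter. In both comparisons these were the only 2 of 19 alternatives that called it.

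In heart 3 of the 9 genes passed the count filter (Cyp27a1, Abcb4 and Nr0b2), and 0 of 3 were called in each comparison, against 4.56% of the 15137 genes tested at 12 against 8 weeks, 1.06% at 10 against 8 weeks and 0.0396% at 12 against 10 weeks. Abcb4 was measured in heart at 41.1, 39.9, 39.0 and 34.1 CPM at 8 weeks and at 48.1, 52.6, 41.8 and 46.3 CPM at 12 weeks. As in liver, every 12-week library was above every 8-week library, where 12.7% of all genes tested were separated. The log2 fold change of 0.29 (SE 0.09, 95% interval 0.10 to 0.49) had an adjusted p of 0.0747 in edgeR and 0.0452 in DESeq2, the only 1 of 20 alternatives that called it. Cyp27a1 was measured in heart at 20.02, 21.1, 24.2 and 27.8 CPM at 8 weeks, 18.5, 19.2, 17.3 and 18.5 CPM at 10 weeks, and 14.5, 18.2, 18.1 and 23.8 CPM at 12 weeks. Every 10-week library was below every 8-week library, where 9.78% of all genes tested were separated, and the log2 fold change was -0.34 (SE 0.13, adjusted p = 0.206, edgeR). At 12 against 8 weeks it was -0.32 (SE 0.13, adjusted p = 0.145, edgeR), and at 12 against 10 weeks 0 of 3 genes were separated, against 6.08% of all genes tested. Without replicate 4 at 12 weeks, Cyp27a1 (-0.46, edgeR adjusted p = 0.0223) and Nr0b2 (-0.44, edgeR adjusted p = 0.0333) were called. That library had the highest level of both genes at 12 weeks, so its omission lowers the 12-week mean of each. The share of all genes called in that fit is not given here, and 4.56% is the share in the fit of all heart libraries.

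A difference in age change between tissues could be read only for genes that passed the count filter in both tissues, which were 5 of the 9 for liver and kidney (Cyp27a1, Baat, Slc10a1, Nr1h4 and Nr0b2) and 3 of the 9 for liver and heart (Cyp27a1, Abcb4 and Nr0b2). The others were near 0 in the tissue compared with liver and give no information on such a difference there. Between liver and kidney 0 of 5 were called at 12 against 8 weeks and 0 of 5 at 10 against 8 weeks, against 0.304% and 0.0558% of 19716 genes. At an unadjusted p under 0.05 the counts were 0 and 1 of 5, where 11.2% and 9.44% of all genes were. Between liver and heart 0 of 3 were called in both comparisons, against 4.16% and 1.09%. The unadjusted counts were 1 and 3 of 3, where 18.4% and 14.5% of all genes were. These counts rest on 1 spread per gene for all tissues, and the spread differed between tissues. In the separate fits the biological coefficient of variation of Nr0b2 was 0.413 in liver and 0.165 in heart. That of Abcb4 was 0.216 and 0.0947, and that of Cyp27a1 was 0.129 and 0.126. The lowest adjusted p was that of Cyp27a1, whose log2 change at 12 against 8 weeks was higher in liver than in heart by 0.63 (SE 0.20, 95% interval 0.22 to 1.03, adjusted p = 0.0683, edgeR). This difference was called in 4 of 44 alternatives, and its adjusted p was as high as 0.157 over them. It was called in DESeq2 (adjusted p = 0.0375), where 7.05% of all genes were. Without the count filter (edgeR adjusted p = 0.00913) 1.91% were called. With age and replicate number together as a block (edgeR adjusted p = 0.0179) 3.61% were. It was also called without heart replicate 4 at 12 weeks (0.77, edgeR adjusted p = 0.0187), the library with the highest Cyp27a1 level of that group. The share of all genes called in that last fit is not given here.

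Over the 12 liver libraries, levels of the genes were compared with each other as log2(CPM + 1). Of the 36 pairs, 0 passed an adjusted p of 0.05 (permutation test of Pearson's r, two-sided, 100000 permutations). Cyp8b1 and Cyp27a1 had r = 0.776 and rho = 0.804 (permutation p = 0.0037, adjusted 0.112, n = 12). Without the 2 libraries farthest from the median of the first gene named, r was 0.840. With RLE scaling rho of this pair was 0.839 (permutation, adjusted p = 0.0403) and r was 0.785 (permutation, adjusted p = 0.109). Cyp7a1 and its receptor-pathway gene Nr1h4 had r = 0.735 and rho = 0.720 (permutation p = 0.0062, adjusted 0.112, n = 12), with r = 0.921 without the 2 farthest libraries (permutation, adjusted p = 0.0072). Among deviations from the age means, Cyp7a1 and Nr1h4 had r = 0.741 (permutation, adjusted p = 0.164). In these deviations 1 of 36 pairs passed, Cyp27a1 and Abcb11, with r = -0.742 (permutation, adjusted p = 0.0364). For this pair rho did not pass (permutation, adjusted p = 0.233), r without the 2 farthest libraries did not (permutation, adjusted p = 0.126), and over the 12 libraries r was -0.128. Cyp7a1 and Abcb11 had r = -0.672 over the 12 libraries (permutation, adjusted p = 0.199). Cyp7a1 and Nr0b2 had r = -0.409 (permutation, adjusted p = 0.480) and rho = -0.343. Among deviations from the age means their r was -0.261 (permutation, adjusted p = 0.613).

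Bile acid synthesis is known to follow the day, and the hour at which the mice were sampled is not given in the sources used here. Clock genes therefore stand beside the 9 genes as a measured fact. Bmal1, a core activator of the clock, was at 6.95, 7.42 and 4.38 CPM in liver replicates 1, 3 and 4 at 10 weeks and between 0.907 and 1.78 CPM in the other 9 liver libraries, replicate 2 at 10 weeks included (1.30 CPM). In heart at 10 weeks it was 10.6, 1.36, 3.80 and 3.45 CPM and in kidney it was 8.83, 2.04, 4.06 and 2.27 CPM, and the lowest library was the one numbered 2 in each. The liver library numbered 2 was the one in which Cyp7a1 was highest and Nr0b2 lowest for 10 weeks, and nothing states that the 3 libraries share an animal. Of 14 clock genes 13 were tested in liver, and of these 0 were called between ages. Of all genes tested, 0.239% were called at 12 against 8 weeks, 0.0204% at 10 against 8 weeks and 0.0545% at 12 against 10 weeks. Without replicate 2 at 10 weeks, the library of that age with low Bmal1, 2 were called at 10 against 8 weeks and 1 at 12 against 10 weeks. The share of all genes called in that fit is not given here, so these counts are not read as a result.

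Across the 117 pairs of 1 of the 9 genes and 1 clock gene, a comparison chosen after the values were seen, 0 passed an adjusted p of 0.05 (permutation test, two-sided). Cyp7a1 and Nr1d1, which encodes the repressor REV-ERB-alpha, had r = -0.814 and rho = -0.825 (permutation p = 0.0020, adjusted 0.0577, n = 12). Without the 2 libraries farthest from the median of the clock gene, r was -0.716. Within ages, r of the deviations was -0.835 (permutation, adjusted p = 0.208). Cyp7a1 and the clock gene Ciart had the same adjusted p of 0.0577 by permutation, with r = 0.785, rho = 0.846 and r = 0.830 without the 2 farthest libraries. So did Abcb11 and Nr1d1 (r = 0.776, rho = 0.713) and Nr1h4 and Bmal1 (r = -0.789, rho = -0.427). Nr1d1 was at 55.4, 35.6, 24.8 and 20.4 CPM at 8 weeks, 105, 43.9, 117 and 83.6 CPM at 10 weeks and 131, 86.9, 80.9 and 19.2 CPM at 12 weeks. The library with the highest Nr1d1 level, replicate 1 at 12 weeks, had the lowest Cyp7a1 level, and the library with the lowest, replicate 4 at 12 weeks, had the highest. Slc10a1 and Hlf, which encodes a clock output factor, had r = 0.816 and rho = 0.790 (permutation p = 0.0021, adjusted 0.0577, n = 12). Nr0b2 and Bmal1 had r = 0.783 and rho = 0.671 (permutation p = 0.0013, adjusted 0.0577, n = 12). Without the 2 libraries farthest from the median of Bmal1, r fell to 0.425, so its size depended on those libraries. Within ages, r of the deviations was 0.764 (permutation, adjusted p = 0.208).

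**Figure D5:**
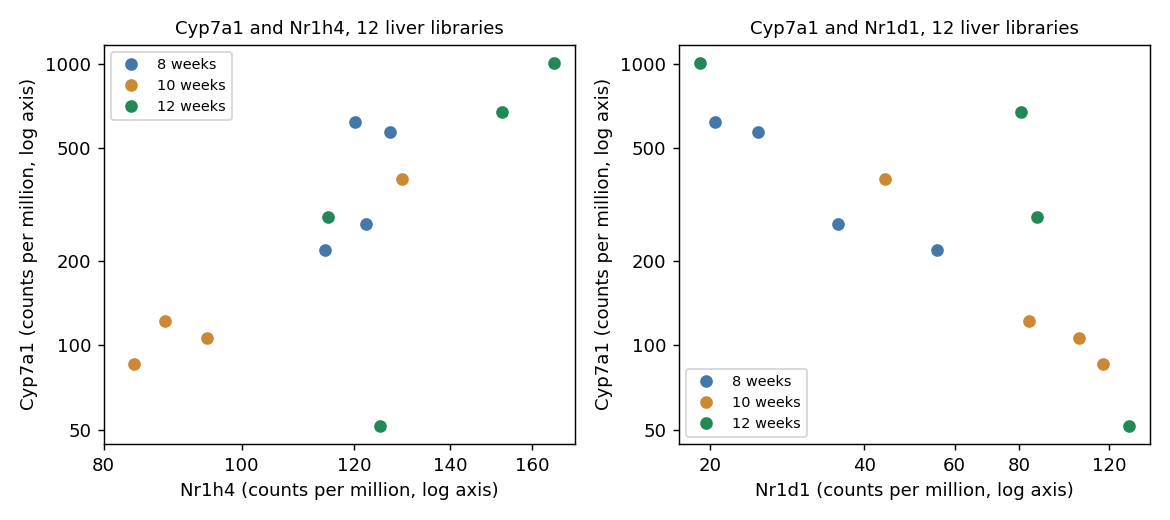
Cyp7a1 level (vertical axis, CPM, log scale) against Nr1h4 and against the clock gene Nr1d1 (horizontal axes, CPM, log scale) in the 12 liver libraries, with colours for age. Pearson's r is 0.735 for Nr1h4 and -0.814 for Nr1d1, and neither passed the adjusted test.

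Among the 14671 other genes tested in liver, the 3 whose log2 levels were most like each gene over the 12 libraries were named, as a description. For Cyp7a1 these were Gm69496 (r = 0.986, rho = 1.00), Tomm5 (r = 0.941) and Ppif (r = 0.932). Gm69496 (ENSMUSG00000136255) is annotated as a long non-coding RNA at chr4:6264113-6265103 (GRCm39, minus strand), with 508 bases between it and the 3′ end of Cyp7a1 on the same strand. Its count was between 8.28% and 15.4% of that of Cyp7a1 in liver (median 10.5%), and it had 0 counts in kidney and heart together. For Abcb4 the 3 genes were Ugt2b5 (r = 0.959), Aldh3a2 (r = 0.952) and Ugt3a2 (r = 0.951), of which Ugt2b5 and Ugt3a2 encode UDP-glycosyltransferases. Abcb11 was most like Depdc7 (r = 0.956), Rai14 (r = 0.949) and Cxcl11 (r = 0.928), and Nr0b2 was most like Mydgf (r = 0.903), Tfg (r = 0.880) and Rpn2 (r = 0.872). For Cyp8b1 they were Hsd17b10 (r = 0.899), Immp2l (r = 0.894) and Aurkaip1 (r = 0.883), and for Cyp27a1 they were Fggy (r = 0.910), Qng1 (r = 0.897) and Rsu1 (r = 0.893). Slc10a1 was most like Dffa (r = 0.921), Pcp4l1 (r = 0.921) and the glucose transporter gene Slc2a2 (r = 0.920), Nr1h4 most like Fam120b (r = 0.924), Arih2 (r = 0.913) and Mettl13 (r = 0.908), and Baat most like Taf1c (r = 0.870), Atad2 (r = 0.838) and Rcan3 (r = 0.834).

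In liver 14 of 16 further genes of synthesis and conjugation, 12 of 15 further transport genes and 12 of 15 regulators were tested between ages, and 0 passed an adjusted p of 0.05 in each comparison. At 12 against 8 weeks 11 of 14 synthesis genes were higher (6 at an unadjusted p under 0.05, where 15.1% of all genes tested were, and median log2 fold change 0.23), as were 9 of 12 transport genes (2 at an unadjusted p under 0.05) and 7 of 12 regulators (2 at an unadjusted p under 0.05). The largest differences in this comparison were 0.93 (SE 0.45, adjusted p = 0.350, edgeR) for Cyp7b1, the oxysterol 7-alpha-hydroxylase of the alternative pathway, and 0.69 (SE 0.14, adjusted p = 0.0649, edgeR) for Abcd3, a peroxisomal transporter. Among transporters they were 0.67 (adjusted p = 0.568) for Slc10a2, the apical bile acid carrier, and 0.43 (adjusted p = 0.210) for Abcg2. Among regulators they were 0.91 (adjusted p = 0.160) for Foxa2 and 0.42 (adjusted p = 0.188) for Hnf4a, both hepatocyte transcription factors. At 10 against 8 weeks the leading differences were Cyp7b1 (0.95) and Cyp39a1 (-0.59), Slc10a2 (1.24) and Slco1a4 (-0.76), and Foxa2 (0.96) and Hnf4a (0.52). At 12 against 10 weeks they were Cyp46a1 (0.93) and Slc27a2 (0.50), Slco1a4 (0.88) and Slc10a2 (-0.56), and the FGF15 co-receptor gene Klb (0.45) and Nr1i2 (0.24), with adjusted p-values between 0.121 and 0.660 in edgeR over these pairs. Between tissues, 11 of 14 synthesis genes tested, 10 of 14 transport genes and 11 of 13 regulators were called higher in liver than in kidney, against 37.0% of all genes tested. In liver over heart 14 of 14, 11 of 14 and 12 of 13 were called higher, against 42.2%. Outside liver 3 of these genes were called between ages. In kidney, where 11 synthesis genes, 11 transport genes and 10 regulators were tested, Slc10a2 rose at 10 against 8 weeks by 0.56 on the log2 scale (SE 0.06, adjusted p = 0.000756, edgeR). It fell by 0.49 at 12 against 10 weeks (SE 0.06, adjusted p = 0.00228, edgeR). Of all genes tested in kidney, 0.929% and 0.482% were called in these comparisons. In heart, where 8, 7 and 6 genes of these lists were tested, Abcd3 rose by 0.27 (SE 0.07, adjusted p = 0.0403, edgeR) and Abcc4, a basolateral exporter, rose by 0.40 (SE 0.10, adjusted p = 0.0344, edgeR) at 12 against 8 weeks. In that comparison 4.56% of all genes tested in heart were called. A difference in age change between liver and another tissue was called for 2 of these genes, of which 14, 14 and 13 were tested. At 12 against 8 weeks it was called for 0.304% of all genes between liver and kidney and for 4.16% between liver and heart. The log2 change of Abcd3 at 12 against 8 weeks was higher in liver than in kidney by 0.72 (SE 0.15, adjusted p = 0.0218, edgeR). That of Abcc4 was lower in liver than in heart, with a difference of -0.81 (SE 0.21, adjusted p = 0.0270, edgeR).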

How the data were processed

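Bulk RNA-seq libraries (paired reads, not stranded) of heart, kidney and liver were analysed. Per the labels and the study's methods, the authors checked reads with FastQC 0.11.9, trimmed them with cutadapt 4.2 and aligned them to GRCm39 with STAR 2.7.11b, and deposited raw read counts per Ensembl gene. Counts made without use of strand were taken, in which STAR leaves out pairs that overlap more than 1 gene (7.36% to 8.95% of pairs per library). Pairs that were unmapped (0.503% to 13.0%), multimapping (6.26% to 19.1%), ambiguous or on no gene stayed out of library sizes. Gene names and positions came from an annotation of the same build.

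Genes with a count above 0 in at least 2 samples and a mean count of at least 10 in an age group were kept. Each tissue was fitted with edgeR 4.0.16 (TMM scaling, quasi-likelihood test) in R 4.3.3 with age as the group, and tissues and their differences in age change were compared in 1 model of 36 libraries. A call is a Benjamini-Hochberg adjusted p under 0.05 over all genes kept, with no minimum fold. CPM (counts per effective library size) are from the same scaling. Groups came from the labels. Nothing states which libraries share an animal, and p-values measure the spread between these samples. Permutations and figures used Python 3.11.15, scipy 1.17.1 and matplotlib 3.10.9. Limits of counts of 0 were set at 3 counts and cover counting error only. Scripts were tested on simulated data.

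Alternatives were RLE scaling, DESeq2 1.42.0, limma-voom 3.58.1, no count filter, edgeR's own filter, the replicate number as a block, only the ages compared, and each library left out. In the model of 36 libraries the block was the age and the replicate number together. Total-count scaling and the omission of both heart libraries with the most Alb were added after the data were seen. The 9 genes, the gene lists and the tests were chosen with earlier results of these data known. All 9 genes were named in every comparison, and of each pathway list the genes called between ages or in differences between tissues, and in liver the largest 2 by size of change in each age comparison.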

Additional observations from a re-analysis of the deposited data

Results flagged for a closer look

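In 4 of 51 groups of 4 libraries, 1 library lay far from the other 3 by Dixon's ratio of gap to range, where chance gives about 1 in 20 groups. Cyp7a1 in liver at 10 weeks was 388 CPM in replicate 2, while the other 3 libraries lay between 85.6 and 122 CPM. Baat in kidney at 10 weeks was 0.322 CPM in replicate 3 and between 0.854 and 0.944 CPM in the others. Slc10a1 in kidney at 10 weeks was 1.57 CPM in replicate 1 and between 0.453 and 0.594 CPM in the others. Nr0b2 in heart at 12 weeks was 12.8 CPM in replicate 4 and between 6.76 and 7.71 CPM in the others.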

How the results depend on the processing

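The 9 genes were called in liver against kidney and against heart under every alternative run, but not always in 1 direction. With total-count scaling Nr1h4 was called lower in liver than in kidney (-0.37, edgeR adjusted p = 3.36e-05). Of all genes, DESeq2 called 83.4% against kidney and 84.2% against heart. Without the count filter these shares were 44.4% and 44.7%. DESeq2 called 1 gene in each of liver at 12 against 8 and at 12 against 10 weeks, kidney at 10 against 8 and at 12 against 10 weeks, heart at 12 against 8 weeks, and the difference between liver and heart at 12 against 8 weeks, where it called between 2.88% and 8.39% of all genes. Without the count filter, which also changes how many genes are tested, the counts were 1 and 2 in the same liver comparisons, 1 and 1 in kidney, and 1 and 2 for the difference between liver and heart at 12 against 8 and 10 against 8 weeks (the latter Nr0b2 and Cyp8b1, which has 47 counts in heart), where between 0.788% and 2.39% of all genes were called. In the model of 36 libraries, age and replicate number together as a block treat same-numbered libraries of an age as paired. That block gave 1 call for the difference between liver and heart at 12 against 8 weeks (Cyp27a1, edgeR adjusted p = 0.0179), where 3.61% of all genes were called. Within liver, the replicate number alone as a block turned Cyp7a1 at 12 against 8 weeks to -0.053 on the log2 scale. Libraries with the same number and age correlated at 0.0418 to 0.240 between liver and kidney (median 0.130, against -0.0385 for other numbers), at 0.0267 to 0.176 between kidney and heart (median 0.0822, against -0.0386) and at -0.0325 to 0.122 between liver and heart (median 0.0477, against -0.0292). Each of these medians was above that of other numbers. The main tests between tissues treat all libraries as independent. As not every pair passed 0.1, and the liver ages gave -0.301 to 0.227, the numbers were not taken as pairs, but a shared animal is not settled by these values. Of the 36 correlations, 1 passed by r among deviations from the age means, 1 by r without the 2 farthest libraries and, with RLE scaling, 1 by rho.

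Single genes turned sign at small uncalled changes. Cyp7a1 in liver at 12 against 8 weeks was -0.27 in limma-voom and ranged from -0.32 to 0.64 with 1 library left out, and Baat was 0.012 without the filter and ranged from -0.050 to 0.048. With 1 library left out, at 10 against 8 weeks Cyp8b1 in liver ranged from -0.40 to 0.16, Cyp27a1 in liver from -0.0060 to 0.13 and Abcb4 in heart from -0.021 to 0.10. In kidney at 12 against 8 weeks the ranges were -0.13 to 0.076 for Cyp27a1, -0.064 to 0.29 for Slc10a1 and -0.11 to 0.032 for Nr1h4. In heart at 12 against 10 weeks they were -0.11 to 0.12 for Cyp27a1 and -0.27 to 0.090 for Nr0b2, which was 0.083 without both heart libraries with the most Alb. The difference of Nr0b2 at 12 against 8 weeks ranged from -0.067 to 0.39 between liver and kidney and from -0.37 to 0.060 between liver and heart, and at 10 against 8 weeks that between liver and kidney ranged from -0.48 to 0.26 for Slc10a1 and from -0.061 to 0.16 for Nr1h4. The called difference of Nr1h4 between liver and kidney was -0.37 with total-count scaling. With 1 library left out, counts of calls ranged from 0 to 2 in heart at 12 against 8 weeks, from 0 to 1 for the difference between liver and heart at 12 against 8 weeks, from 6 to 7 between kidney and heart, and for clock genes in liver from 0 to 2 at 10 against 8 and from 0 to 1 at 12 against 10 weeks. The cause of these changes was not tested. Levels of Cyp7a1, Cyp8b1 and Abcb11 outside liver rest on few counts.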

Other observations

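Hsd3b7, the enzyme that acts on the product of Cyp7a1 in the classic pathway, had 0 counts in all 36 libraries, liver included. The gene lies at chr7:127399597-127402989 (GRCm39, plus strand), and 3225 of its 3263 exon bases (98.8%) are also covered by exons of Gm49388 on the same strand, which had 0 counts, or of 9430064I24Rik on the other strand, which had 25 counts. Pairs that overlap more than 1 gene were left out of these counts, so its level was not measured here.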
